A study of Mus musculus with 8 samples.

Results

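The genes described here are the receptors of the EGF family, their ligands and the receptor inhibitor Errfi1, as measured on Affymetrix gene arrays in NMuMG cells, an untransformed mouse mammary gland line. The list holds 10 genes: the receptors Egfr, Erbb2 and Erbb3, the ligands Hbegf, Areg, Ereg, Tgfa, Btc and Nrg1, and Errfi1. A gene was measured where a probe set of the platform carries its symbol and no other, which gave 9 of the 10 members among 19937 genes in all, each with 1 probe set, and Areg was not analysed here. There were 4 groups of 2 arrays each: cells transfected with siRNA against Klf4 (siKlf4) and kept with 2 ng/ml TGFβ for 2 days, control siRNA (siControl) cells with the same TGFβ treatment, siKlf4 cells without TGFβ, and siControl cells without TGFβ. The siKlf4 reagent is a pool of siRNAs against the transcription factor Klf4, the transfection is transient, and the cells are a subclone of NMuMG. Separate transfections for the paired arrays of a group are not stated in the labels, so the p-values cover array-to-array spread, which may be technical. Since RNA was taken from whole cultures, fewer cells of one kind and less RNA per cell cannot be told apart.

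EGF family ligands are made as membrane proteins, are cut from the cell surface by ADAM proteases and bind receptor tyrosine kinases of the ErbB family. Bound receptors pair with each other and activate the ERK and PI3K pathways, and in mammary epithelium this system governs duct growth, survival and, together with TGFβ, the loss of epithelial form. Egfr binds most of the ligands measured here. Erbb2 has no soluble ligand of its own and acts as a partner, while Erbb3 binds neuregulins and has little kinase activity.

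Values are on the log2 scale after Robust Multi-Array normalization (RMA), so a difference of 1 is a change of 2-fold. Groups were compared with limma, and a gene is said to have risen or fallen at an adjusted p under 0.05 (Benjamini-Hochberg over the 19937 genes). The lowest array median was 4.90, and the 2 arrays of a group correlated with an r of 0.992 to 0.995 across probe sets. Klf4, the gene the siRNA targets, stood at 7.43 and 7.24 (log2) in arrays labelled siKlf4 with TGFβ, against 7.46 and 7.46 in those labelled siControl with TGFβ. Without TGFβ it had 8.03 and 7.91 in the arrays labelled siKlf4, against 8.60 and 8.43 in those labelled siControl. Klf4 fell with the siKlf4 label in the absence of TGFβ (log2 difference −0.54, adjusted p = 0.0037 from limma), while its difference in the presence of TGFβ was −0.13 (adjusted p = 0.444 from limma). With the TGFβ label it fell by 0.63 in siKlf4 (adjusted p = 0.00295 from limma) and by 1.05 in siControl (adjusted p = 3.6e-04 from limma). Of 8 measured genes known to be induced by TGFβ, such as Smad7 and Skil, 6 rose with the siKlf4 label in the presence of TGFβ and 6 in its absence. With the TGFβ label against none, 1 of these 8 genes rose and 1 fell in siKlf4, and none rose and 2 fell in siControl. These values go against the labels, most of all for the arrays labelled siKlf4 without TGFβ and siControl with TGFβ, whose labels are in doubt. Group names here are those of the labels, and each siKlf4 and TGFβ difference below holds only as far as the labels do: were arrays exchanged, it would compare other conditions. Of the 10 epithelial markers, Epcam and Esrp1 lay among the dimmest 30% of genes, while Cdh1, Krt8 and Krt18 averaged 10.5, 13.2 and 12.5. With the siKlf4 label, 3 of the 10 rose and 2 fell in the presence of TGFβ, and 2 rose and 2 fell in its absence: Krt8 and Krt18 rose in both conditions and Dsp with TGFβ, while Krt19 (log2 differences −1.04 with TGFβ and −0.99 without) and Ocln (−0.81 and −0.83) fell in both. The mean log2 value of 5 immune cell markers lay at 5.19 and 5.19 in the siKlf4 arrays with TGFβ, against 4.89 and 4.94 in the siControl arrays with TGFβ, and at 5.23 and 5.29 in the siKlf4 arrays without TGFβ, against 5.03 and 5.09 in the siControl arrays without TGFβ. Ptprc, which defines leukocytes, and Itgam were among the dimmest 30%, as were 3 of 4 endothelial markers. Of the other immune markers, Cd68 and Csf1r averaged 6.72 and 6.07. With the siKlf4 label, 2 of the 5 immune markers rose and none fell in the presence of TGFβ, and 1 rose and none fell in its absence. Csf1r had 6.84 and 6.84 in the siKlf4 arrays with TGFβ, against 5.82 and 5.85 in the siControl arrays with TGFβ. The mean of 8 mesenchymal markers lay between 8.20 and 8.24 in the siKlf4 arrays with TGFβ, against 7.74 and 7.75 in the siControl arrays with TGFβ, and at 8.35 and 8.35 in the siKlf4 arrays without TGFβ, against 7.72 and 7.78 in the siControl arrays without TGFβ, and with the siKlf4 label 4 of the 8 rose and 2 fell (S100a4 and Thy1) in the presence of TGFβ, and 4 rose and none fell in its absence. Over all genes, 12.3% rose and 11.9% fell with the siKlf4 label in the presence of TGFβ, and 9.98% and 9.71% in its absence. With the TGFβ label, 6.01% of all genes rose and 6.87% fell in siKlf4, and 5.81% and 6.65% in siControl. The part of these markers, and of the TGFβ-induced genes, in the results below was not tested.

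RefSeq promoters of the GRCm38.p6 build were matched to 5 of the 9 measured members, and 3 are printed because their genes differed between the siKlf4 and siControl arrays: Btc and Errfi1, which were lower, and Egfr, which was higher. Each runs from 250 bases before the start site to 50 after it, 5′ to 3′ on the gene's own strand. Capitals mark CACCC, the core of the element that Klf4-type factors bind, on either strand (as GGGTG on the other), and the cyclic AMP response element TGACGTCA.
Btc, chr5:91402945-91403244, minus strand: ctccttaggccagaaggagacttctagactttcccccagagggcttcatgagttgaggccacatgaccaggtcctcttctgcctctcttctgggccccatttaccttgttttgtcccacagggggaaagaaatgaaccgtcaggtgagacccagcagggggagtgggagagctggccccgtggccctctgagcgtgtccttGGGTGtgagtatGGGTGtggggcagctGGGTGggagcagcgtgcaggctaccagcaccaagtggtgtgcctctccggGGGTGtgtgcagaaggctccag
Egfr, chr11:16751953-16752252, plus strand: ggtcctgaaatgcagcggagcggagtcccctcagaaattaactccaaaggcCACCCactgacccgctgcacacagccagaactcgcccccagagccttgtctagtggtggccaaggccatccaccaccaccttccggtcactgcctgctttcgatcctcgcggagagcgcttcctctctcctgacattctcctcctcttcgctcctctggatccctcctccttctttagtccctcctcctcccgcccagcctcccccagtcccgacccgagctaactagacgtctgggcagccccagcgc
Errfi1, chr4:150854820-150855119, plus strand, the second of its start sites: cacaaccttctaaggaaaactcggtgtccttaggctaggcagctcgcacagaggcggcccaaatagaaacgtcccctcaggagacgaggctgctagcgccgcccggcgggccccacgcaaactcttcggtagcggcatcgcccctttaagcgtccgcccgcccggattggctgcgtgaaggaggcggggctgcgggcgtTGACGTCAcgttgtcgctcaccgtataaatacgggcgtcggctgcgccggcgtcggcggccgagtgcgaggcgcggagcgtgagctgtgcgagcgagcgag
The Btc promoter held 4 matches to CACCC, that of Egfr 1 and those of both Errfi1 start sites 0. Erbb2 and Tgfa, which did not pass the test in any comparison, had 4 and 3. For Errfi1, TGACGTCA had 1 match at the second start site, the one printed, and 0 at the first, which is not printed. CACCC was present in 57.5% of all 32851 promoters of this length and TGACGTCA in 1.79%, so a match is a description of the letters and not a bound site. In the same RefSeq annotation the ligand genes Epgn, Ereg, Areg and Btc follow one another as neighbors on 1 chromosome.

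To learn how the arrays labelled siKlf4 differed from those labelled siControl, the members were compared within each TGFβ condition. Without TGFβ, the receptor Egfr and the ligand Hbegf rose, while the receptor Erbb3, the ligands Ereg and Btc and the inhibitor Errfi1 fell. Thus 2 of the 9 measured members were higher, where 9.98% of all genes were, and 4 were lower, where 9.71% of all genes were. With TGFβ, Hbegf rose and Erbb3, Ereg, Btc and Errfi1 fell, which is 1 member higher (12.3% of all genes) and 4 lower (11.9% of all genes). In either direction these were 6 of 9 members without TGFβ, beside 19.7% of all genes, and 5 of 9 with it, beside 24.2%. The members were chosen with earlier results of these data known, so these shares are a description and not a test of the family. By the F test over the 4 groups, 6 of 9 members passed, beside 33.3% of all genes. The median log2 difference of the 9 members was −0.13 without TGFβ and −0.20 with it, against 0.00 and −0.03 over all genes. The comparisons share a common fit, and those with the same arrays in them are not independent of each other. The arrays of the groups did not overlap for 6 of 9 members without TGFβ (49.1% of all genes) and for 7 of 9 with it (62.4% of all genes), so non-overlap of 2 arrays against 2 is common in these data.

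**Figure D1:**
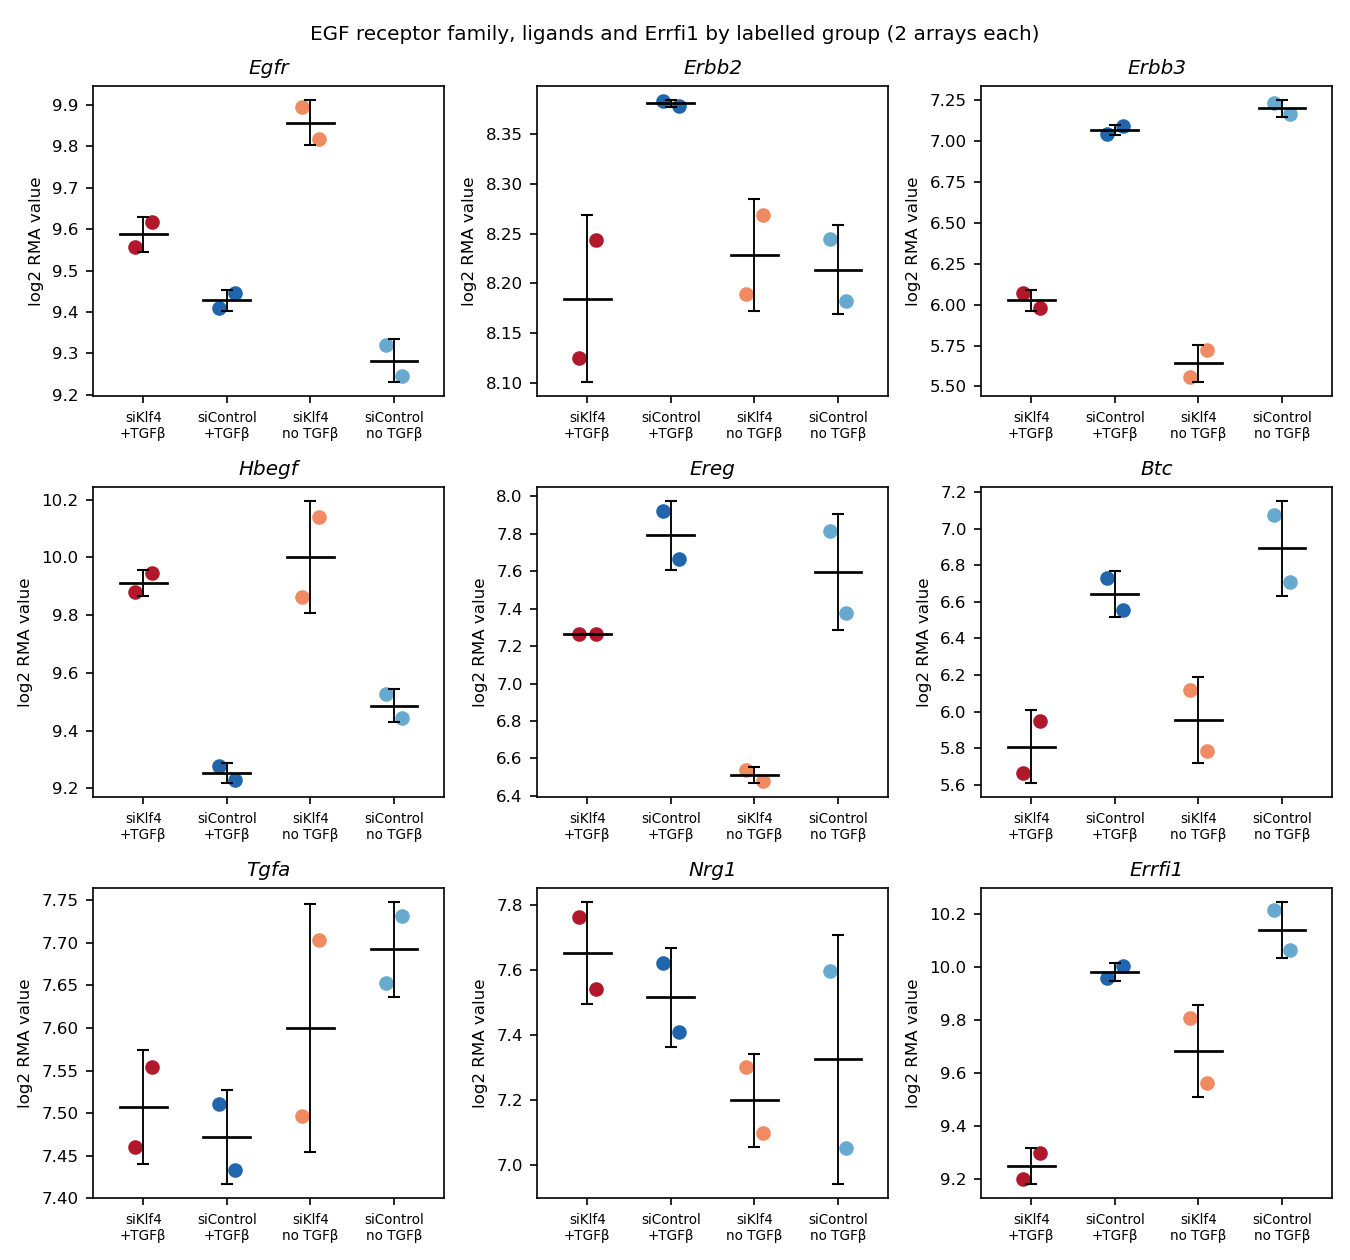
Log2 RMA values (y axis, each panel with its own range) of the 9 measured members in the 4 labelled groups (x axis). Each point is 1 array, with the group mean as a line and the SD as a bar. For Erbb3, Ereg, Btc and Errfi1 both siKlf4 arrays lie below both siControl arrays in each TGFβ condition, and for Egfr and Hbegf they lie above.

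Among the receptors, Erbb3, the neuregulin receptor that signals to PI3K through its partners, showed the greatest difference of the 9 members. Its log2 values were 5.56 and 5.72 in the siKlf4 arrays without TGFβ, against 7.24 and 7.17 in the siControl arrays without TGFβ. With TGFβ they were 6.07 and 5.98 in the siKlf4 arrays, against 7.05 and 7.09 in the siControl arrays. All 4 siKlf4 arrays lay below all 4 siControl arrays. Erbb3 fell by 1.56 on the log2 scale without TGFβ (standard error 0.0874, 2.95-fold, adjusted p = 4.3e-06 from limma) and by 1.04 with it (2.06-fold, adjusted p = 2.5e-05 in the same fit). In order from low to high, its groups were siKlf4 without TGFβ, siKlf4 with TGFβ, siControl with TGFβ and siControl without TGFβ. The last 2 of these did not pass the test against each other (log2 difference −0.13 for siControl with TGFβ minus siControl without it, 95% interval −0.33 to 0.07), while the other neighbors in this order did.

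Egfr, the receptor for EGF and most related ligands, had log2 values of 9.89 and 9.82 in the siKlf4 arrays without TGFβ, against 9.32 and 9.25 in the siControl arrays without TGFβ. This is a rise of 0.57 (standard error 0.0787, 1.49-fold, adjusted p = 7.4e-04 from limma). With TGFβ the values were 9.56 and 9.62 in the siKlf4 arrays, against 9.41 and 9.45 in the siControl arrays. The siKlf4 arrays were again the higher ones without overlap, but the difference of 0.16 did not pass the test (95% interval −0.02 to 0.34, adjusted p = 0.203 from limma). From high to low the groups stood as siKlf4 without TGFβ, siKlf4 with TGFβ, siControl with TGFβ and siControl without TGFβ, and in this order no group passed the test against its neighbor (adjusted p = 0.0571, 0.203 and 0.312 from limma).

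Erbb2, the ligandless partner receptor, moved little. Its log2 values were 8.19 and 8.27 in the siKlf4 arrays without TGFβ, against 8.25 and 8.18 in the siControl arrays without TGFβ, and these overlap. Under TGFβ, the values were 8.12 and 8.24 in the siKlf4 arrays, against 8.38 and 8.38 in the siControl arrays. The differences were 0.02 (95% interval −0.17 to 0.20, adjusted p = 0.940 from limma) and −0.20 (95% interval −0.38 to −0.01, adjusted p = 0.127 from limma), and neither passed the threshold. The 3 receptors thus differed in direction in the absence of TGFβ, with Egfr higher, Erbb3 lower and Erbb2 with a difference of 0.02 that did not pass.

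Among the ligands, Hbegf was the member that rose in both conditions. It encodes heparin-binding EGF-like growth factor, which binds Egfr and Erbb4. Its log2 values were 9.86 and 10.14 in the siKlf4 arrays without TGFβ, against 9.53 and 9.45 in the siControl arrays without TGFβ. With TGFβ they were 9.88 and 9.94 in the siKlf4 arrays, against 9.28 and 9.23 in the siControl arrays. All 4 siKlf4 arrays were above all 4 siControl arrays, with log2 differences of 0.51 (standard error 0.101, 1.43-fold, adjusted p = 0.00582 from limma) and 0.66 (1.58-fold, adjusted p = 0.00113 from the same limma fit). From high to low, the groups were siKlf4 without TGFβ, siKlf4 with TGFβ, siControl without TGFβ and siControl with TGFβ. Neither the 2 siKlf4 groups (adjusted p = 0.709) nor the 2 siControl groups (adjusted p = 0.196 from limma) passed the test against each other.

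Ereg encodes epiregulin, a ligand of Egfr and Erbb4. On the log2 scale it stood at 6.54 and 6.48 in the siKlf4 arrays without TGFβ, against 7.82 and 7.38 in the siControl arrays without TGFβ. In the presence of TGFβ they were 7.26 and 7.27 in the siKlf4 arrays, against 7.92 and 7.66 in the siControl arrays. The siKlf4 arrays without TGFβ stood lowest, and the siKlf4 arrays with TGFβ lay between them and all 4 siControl arrays. Ereg fell by 1.09 without TGFβ (standard error 0.141, 2.12-fold, adjusted p = 5.4e-04 from limma) and by 0.53 with it (1.44-fold, adjusted p = 0.0236 from the same limma fit). The call with TGFβ ended on leaving out siControl replicate 1 with TGFβ (adjusted p = 0.174 from limma) or siKlf4 replicate 1 or 2 with TGFβ (adjusted p = 0.103 and 0.105 from limma), in a range of 0.00506 to 0.174 over 16 alternatives. The neighbors siKlf4 with TGFβ and siControl without TGFβ did not pass the test against each other (log2 difference −0.33, adjusted p = 0.121 from limma).

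Btc encodes betacellulin, which also binds Egfr and Erbb4. It measured log2 values of 6.12 and 5.79 in the siKlf4 arrays without TGFβ, against 7.08 and 6.71 in the siControl arrays without TGFβ. With TGFβ they were 5.67 and 5.95 in the siKlf4 arrays, against 6.73 and 6.55 in the siControl arrays. The 4 siKlf4 arrays lay below the 4 siControl arrays, and within each siRNA the arrays with and without TGFβ overlapped. Btc fell by 0.94 (standard error 0.159, 1.92-fold, adjusted p = 0.00251 from limma) without TGFβ and by 0.84 (1.78-fold, adjusted p = 0.00389 from the same limma fit) with it.

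The other 2 ligands did not pass the test for the siKlf4 label. Tgfa, which encodes the Egfr ligand TGFα, had log2 values of 7.50 and 7.70 in the siKlf4 arrays without TGFβ, against 7.65 and 7.73 in the siControl arrays without TGFβ. With TGFβ it had 7.46 and 7.55 in the siKlf4 arrays, against 7.51 and 7.43 in the siControl arrays. These overlap in each condition, with log2 differences of −0.09 (95% interval −0.31 to 0.12, adjusted p = 0.617 from limma) and 0.04 (95% interval −0.18 to 0.25, adjusted p = 0.851 from limma). Nrg1 encodes neuregulin 1, a ligand of Erbb3 and Erbb4. Its log2 values were 7.30 and 7.10 in the siKlf4 arrays without TGFβ, against 7.60 and 7.05 in the siControl arrays without TGFβ. Under TGFβ, the values were 7.76 and 7.54 in the siKlf4 arrays, against 7.62 and 7.41 in the siControl arrays. The arrays overlapped in each condition, and the log2 differences of −0.13 (95% interval −0.51 to 0.26) and 0.14 (95% interval −0.25 to 0.52) had adjusted p-values of 0.727 and 0.665 from limma. The spread of the siControl arrays without TGFβ (SD 0.384, n = 2) was the widest of any group of a member.

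Errfi1 encodes a cytoplasmic protein, also called Mig6, that binds the kinase domain of ErbB receptors and blocks it. The Errfi1 values were 9.81 and 9.56 in the siKlf4 arrays without TGFβ, against 10.21 and 10.07 in the siControl arrays without TGFβ. In the presence of TGFβ they were 9.20 and 9.30 in the siKlf4 arrays, against 9.96 and 10.005 in the siControl arrays. The siKlf4 arrays with TGFβ were the lowest, and all 4 siKlf4 arrays lay below all 4 siControl arrays. Errfi1 fell by 0.46 without TGFβ (standard error 0.103, 1.37-fold, adjusted p = 0.0119 from limma) and by 0.73 with it (1.66-fold, adjusted p = 6.4e-04 from the same limma fit). Leaving out siControl replicate 1 or siKlf4 replicate 2 without TGFβ ended the call of that condition (adjusted p = 0.0727 and 0.0750 from limma), in a range of 3.3e-04 to 0.0750 over 16 alternatives.

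**Figure D2:**
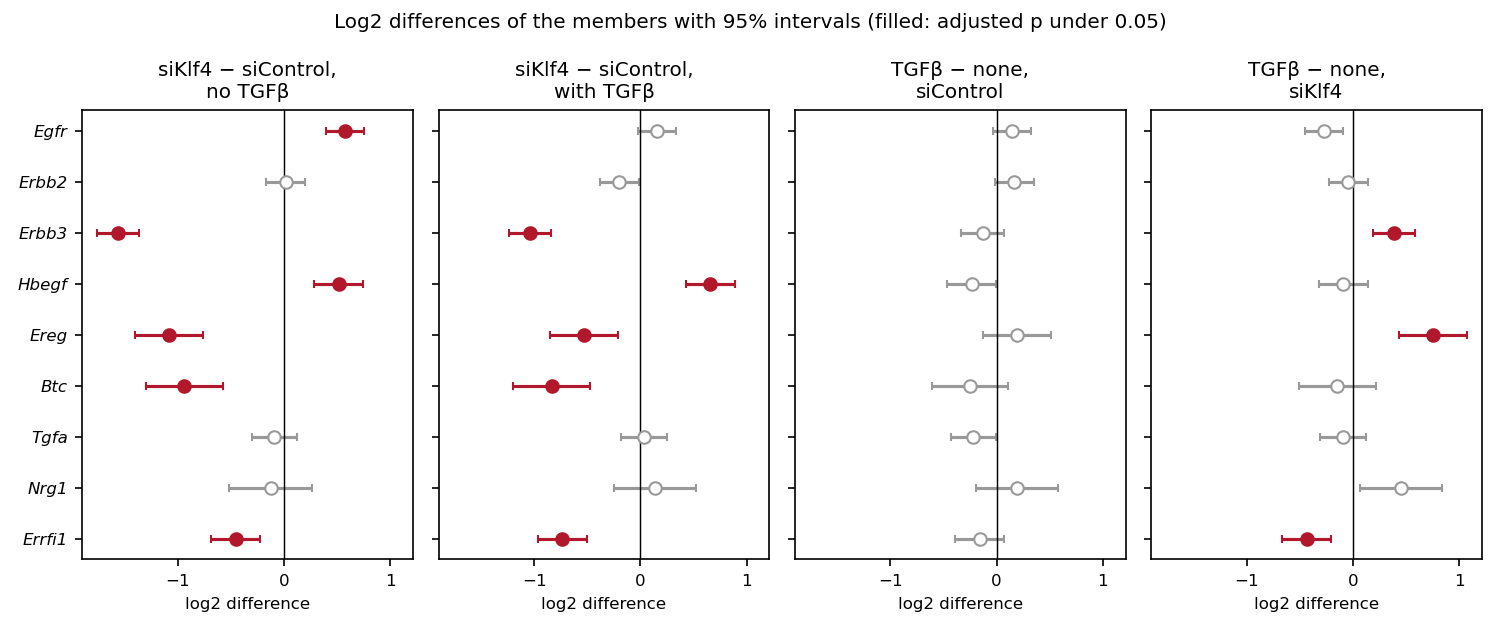
Log2 differences (x axis) of the 9 measured members (y axis) in 4 comparisons, with bars for the 95% interval from limma. Filled points passed an adjusted p of 0.05. Erbb3, Hbegf, Ereg, Btc and Errfi1 are filled in both siKlf4 panels, no member is filled for TGFβ in siControl, and Erbb3, Ereg and Errfi1 are filled for TGFβ in siKlf4.

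Next, arrays carrying the TGFβ label were compared with those lacking it. In siControl, none of the 9 members passed the test in limma, where 5.81% of all genes were higher and 6.65% lower, and 2 had an unadjusted p under 0.05. These 2 were Hbegf, with a log2 difference of −0.23 (adjusted p = 0.196 from limma), and Tgfa, with −0.22 (adjusted p = 0.188 from limma). In siKlf4, Erbb3 and Ereg rose and Errfi1 fell, beside 6.01% of all genes higher and 6.87% lower. The TGFβ arrays were higher by 0.39 for Erbb3 (adjusted p = 0.0190 from limma, standard error 0.0874). For Ereg they were higher by 0.75 (adjusted p = 0.00772 from limma, standard error 0.141). Errfi1 was lower, at −0.44 (standard error 0.103, adjusted p = 0.0230 from limma). In either direction this was 3 of 9 members, beside 12.9% of all genes. The arrays did not overlap for 6 of 9 members in siControl (51.6% of all genes) and for 5 of 9 in siKlf4 (49.2% of all genes), these 3 among the 5. None of the 3 calls was made when either siKlf4 array with TGFβ was left out, with adjusted p-values of 0.145 and 0.0714 for Erbb3, 0.0545 and 0.0559 for Ereg, and 0.157 and 0.0824 for Errfi1 from limma. Erbb3 and Errfi1 also missed the threshold without siKlf4 replicate 1 lacking TGFβ (adjusted p = 0.0921 and 0.109 from limma) and with the 4 arrays of the comparison alone (0.0504 and 0.0501). Over 16 alternatives the adjusted p ranged between 0.00711 and 0.145 for Erbb3, 5.2e-04 and 0.0559 for Ereg, and 8.2e-04 and 0.157 for Errfi1 in limma. Nrg1 had a log2 difference of 0.45 in siKlf4 without overlap of the arrays (95% interval 0.06 to 0.84, adjusted p = 0.138 from limma). Nrg1 passed with the replicate number as a block (adjusted p = 0.0250 from limma) and without replicate 1 or replicate 2 of siControl without TGFβ (0.0418 each), in a range of 0.0250 to 0.501 over 16 alternatives. Egfr had a log2 difference of −0.27 (95% interval −0.45 to −0.09, adjusted p = 0.0571 from limma). Egfr passed with trend and robust options (adjusted p = 0.00493 from limma), after quantile (0.0390) or cyclic loess normalization (0.0367) and without the dimmest 30% of genes (0.0334), in a range of 0.00493 to 0.281 over 16 alternatives.

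Whether the siKlf4 difference itself depended on TGFβ was tested by the interaction, the siKlf4 difference with TGFβ minus that without. No member passed in limma, where 1.52% of all genes did, and 3 members had an unadjusted p under 0.05. The interaction was −0.41 for Egfr (standard error 0.111, adjusted p = 0.131 from limma), 0.52 for Erbb3 (standard error 0.124, adjusted p = 0.0912 from limma) and 0.56 for Ereg (standard error 0.200, adjusted p = 0.281 from limma). For these 3 genes the siKlf4 difference was nearer to 0 with TGFβ than without it, by amounts that did not pass the adjustment. With the trend and robust options of eBayes, the interaction of Egfr passed (adjusted p = 0.0114 from limma, in a range of 0.0114 to 0.390 over 15 alternatives).

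Across both labels at once, the siKlf4 arrays with TGFβ were compared with the siControl arrays without it, and 2 members rose (Egfr by 0.30 and Hbegf by 0.42) and 3 fell (Erbb3 by 1.17, Btc by 1.09 and Errfi1 by 0.89), beside 30% of all genes called. For the siKlf4 arrays without TGFβ against the siControl arrays with it, Egfr (0.43) and Hbegf (0.75) rose and Erbb3 (−1.43), Ereg (−1.28) and Btc (−0.69) fell, beside 22% of all genes. The arrays of these comparisons did not overlap for 7 and 8 of the 9 members, beside 58.1% and 55% of all genes. Both use the arrays of the comparisons above.

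Of 6 other receptors and ligands of the family, 1 passed for siKlf4 against siControl without TGFβ, beside 19.7% of all genes, 1 for TGFβ against none in siControl, beside 12.5%, and none in the other 2 of these 4 comparisons. Erbb4, a receptor for neuregulins, and the ligands Epgn, Nrg3 and Nrg4 lay among the dimmest 30% of genes, and none of the 4 passed the test in any comparison. Nrg2, a further neuregulin, did not pass either. Egf, which encodes EGF itself, had log2 values of 4.94 and 5.10 in the siKlf4 arrays without TGFβ, against 4.66 and 4.72 in the siControl arrays without TGFβ. It rose by 0.33 (adjusted p = 0.0226 from limma), and by 0.45 with TGFβ in siControl (adjusted p = 0.00879 from limma).

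Genes of ligand shedding, which include proteases, their cofactors and the protease inhibitor gene Timp3, were partly higher in the siKlf4 arrays. Of these 12 genes, 6 rose and none fell without TGFβ, beside 9.98% of all genes higher and 9.71% lower. With TGFβ, 5 rose and none fell, beside 12.3% of all genes higher and 11.9% lower. The median log2 differences were 0.26 and 0.28, against 0.00 and −0.03 over all genes. The metalloprotease gene Adam8 rose by 1.72 without TGFβ (3.30-fold, adjusted p = 3.5e-06 from limma) and by 1.33 with it. Rhbdf2, an inactive rhomboid that carries Adam17 to the surface, rose by 0.51 without TGFβ. With TGFβ, Frmd8, a partner of the inactive rhomboids, rose by 0.59 and Adam15 by 0.44. Timp3 is 1 of the 6 genes called without TGFβ (adjusted p = 0.0433 from limma), but it lay among the dimmest 30% of genes, with siControl arrays at 3.57 and 4.12, and it did not pass with TGFβ (adjusted p = 0.0657 from limma). Adam17, the main protease for several EGF ligands, had log2 differences of −0.22 and −0.19 that did not pass (adjusted p = 0.137 and 0.187 from limma). Between the arrays with and without TGFβ, Adam17 fell by 0.70 in siControl and by 0.67 in siKlf4. Adam9, another sheddase, rose by 2.11 in siControl (4.33-fold, adjusted p = 2.3e-05 from limma) and by 2.21 in siKlf4 (4.63-fold, adjusted p = 1.1e-05 from limma). In that comparison 3 of the 12 genes rose and 1 fell in siControl, beside 5.81% of all genes higher and 6.65% lower. In siKlf4, 2 rose and 1 fell, beside 6.01% of all genes higher and 6.87% lower.

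Adaptors and effectors that carry the receptor signal inside the cell moved in both directions. Of 25 measured of 30 listed, 9 rose and 2 fell in the siKlf4 arrays without TGFβ, beside 9.98% of all genes higher and 9.71% lower. In the presence of TGFβ, 11 were up and 2 down, beside 12.3% of all genes higher and 11.9% lower. The medians were 0.13 and 0.24, against 0.00 and −0.03 over all genes. The tyrosine kinase gene Src rose by 0.97 and 0.76, and the adaptor gene Nck2 by 0.60 and 0.71. The transcription factor gene Stat3 rose by 0.61 without TGFβ. Pik3r1, a regulatory subunit of PI3K that docks on Erbb3, fell by 0.52 (1.43-fold) without TGFβ and was 2.21-fold lower with it. The ErbB adaptor gene Grb7 fell by 0.56 and 0.66. With TGFβ against none, 4 rose and 1 fell in siControl, beside 5.81% of all genes higher and 6.65% lower. In siKlf4, 4 rose and 2 fell with TGFβ against none, beside 6.01% of all genes higher and 6.87% lower. Gab1, a docking protein of Egfr, rose by 0.63 in siControl and 0.75 in siKlf4 there, and the kinase gene Braf by 0.55 and 0.52.

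Genes that act on receptor down-regulation, in either direction, were also divided. Of 23 genes, 7 rose and 3 fell in the siKlf4 arrays without TGFβ, beside 9.98% of all genes higher and 9.71% lower. In the presence of TGFβ, 8 were up and 4 down, beside 12.3% of all genes higher and 11.9% lower. The medians were 0.09 and 0.10, against 0.00 and −0.03 over all genes. The ubiquitin ligase gene Cblb rose by 0.61 and 1.29, and its partner Sh3kbp1 by 0.33 and 1.15. For both, the interaction passed, at 0.67 for Cblb and 0.82 for Sh3kbp1. Lrig3, a relative of the Egfr-binding inhibitor Lrig1, rose by 0.49 and 0.64, and the phosphatase gene Ptpn12 by 0.64 and 0.53. Those that fell included the tetraspanin gene Cd82, by 0.67 and 0.62, and the inhibitor gene Spry2, by 0.34 and 0.64. With TGFβ against none, none rose and 2 fell in siControl (Cblb at −1.02 and the endocytic adaptor Epn1 at −0.80), and 1 rose and 4 fell in siKlf4. Over all genes, 5.81% rose and 6.65% fell in siControl, and 6.01% rose and 6.87% fell in siKlf4.

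Genes induced by ERK, the kinase downstream of the receptors, moved in both directions with the siKlf4 label. Of 18 such genes, 6 rose and 5 fell in the siKlf4 arrays without TGFβ, beside 9.98% of all genes higher and 9.71% lower. In the presence of TGFβ, 8 were up and 7 down, beside 12.3% of all genes higher and 11.9% lower. The medians were 0.09 and −0.13, against 0.00 and −0.03 over all genes. The immediate-early gene Egr1 fell by 1.43 without TGFβ (adjusted p = 1.9e-04 from limma) and by 1.10 with it (adjusted p = 6.9e-04 in that fit). The ERK phosphatase genes Dusp4 and Dusp5 each rose by 1.07 without TGFβ, and by 1.40 and 0.92 with it, while Dusp6 fell by 0.47 and 0.57. Ier3 rose by 1.06 with TGFβ. With TGFβ against none, 1 of the 18 rose and 5 fell in siKlf4 (median −0.12, against −0.02 over all genes), and 3 rose and 9 fell in siControl (median −0.24, against 0.02 over all genes). Of all genes, 6.01% rose and 6.87% fell in siKlf4 in this comparison, and 5.81% rose and 6.65% fell in siControl. There Spred1, an inhibitor of ERK signaling, rose by 1.06 in siKlf4 and 1.37 in siControl, and Egr1 fell by 0.61 in siKlf4 and 0.95 in siControl.

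**Figure D3:**
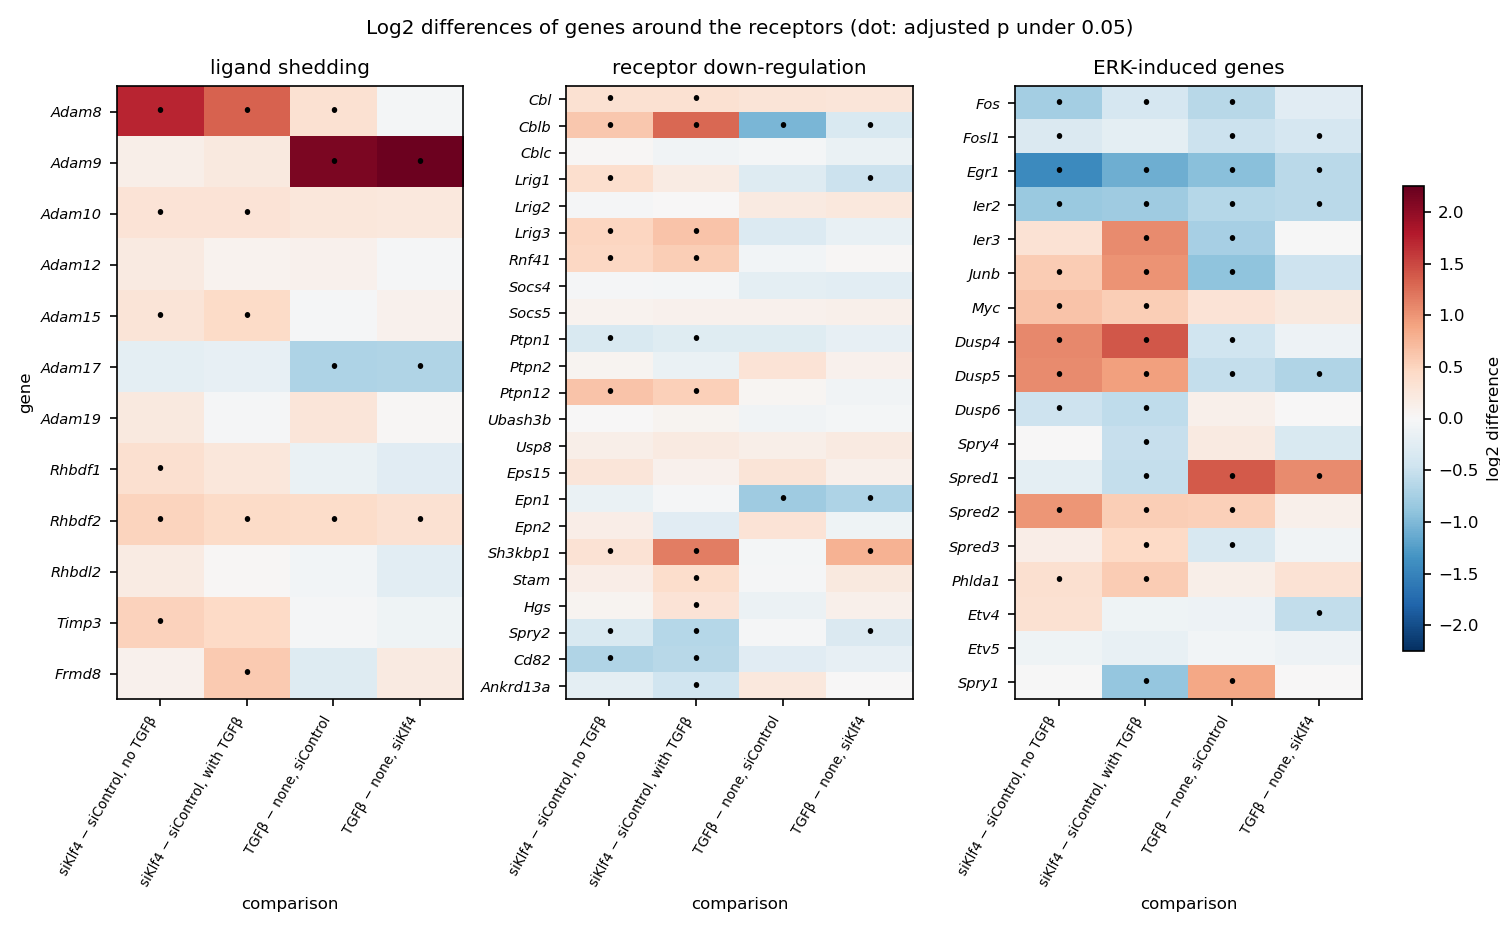
Log2 differences (color) of the measured genes for ligand shedding, receptor down-regulation and ERK response (y axis) in 4 comparisons (x axis), with a dot where the adjusted p was under 0.05. Adam8 is strongest in the siKlf4 columns, Adam9 in the TGFβ columns, and the ERK panel holds both colors within each column.

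The genes whose pattern over the 8 arrays was most like that of the 2 members with the widest range of group means were looked up among the genes whose own group means span at least 1 log2 unit. These 2 members were Erbb3, with a range of 1.56, and Ereg, with a range of 1.28. Across 8 arrays that form 4 groups, the genes nearest to Erbb3 of 1769 were Hvcn1, Samd5, Cdhr5, Abcc2 and Hpgds, with Pearson's r between 0.992 and 0.982. Abcc2, an organic anion transporter, averaged 6.22 in the siKlf4 arrays without TGFβ, against 8.37 in the siControl arrays without TGFβ, and 6.46 in the siKlf4 arrays with TGFβ, against 8.30 in the siControl arrays with TGFβ. The nearest to Ereg were Csrp2, Gfpt1, Gaa, Pgap1 and Cxcl5, with r between 0.978 and 0.958. Cxcl5, a chemokine, averaged 5.44 in the siKlf4 arrays without TGFβ, against 8.11 in the siControl arrays without TGFβ, and 6.88 in the siKlf4 arrays with TGFβ, against 7.99 in the siControl arrays with TGFβ. These correlations are a description and mostly reflect differences between the groups.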

How the data were processed

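NMuMG cell RNA was profiled on 8 Affymetrix arrays that cover whole transcripts, with 2 per group and groups taken from the sample labels. The table deposited by the authors holds log2 expression after Robust Multi-Array normalization, which corrects background, equalizes quantiles and summarizes each probe set. Per the submitters' processing notes oligo 1.14.0 was used, and the base of the logarithm follows from the range of the values. Background settings and annotation are not given in the sources used here.

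Gene names came from the annotation of the platform, which gave a single symbol to 21640 of 34760 probe sets, several to 1321 and no entry to 11799. The probe set with the highest mean was kept per gene. Differences were computed with limma 3.58.1 in R 4.3.3, with 1 mean per group over all 8 arrays, eBayes and Benjamini-Hochberg adjustment over 19937 genes. Residual degrees of freedom were 4, those of the prior 4.93, and the fit was tested on simulated data. The number of arrays limits the precision.

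The members and lists were chosen with earlier results of these data known. The named genes are all members, Klf4, up to 3 called genes of each other list with the largest differences, 1 of the opposite direction, and the 5 genes most like each of 2 members. Genes of a list that pass the test in a further comparison, Adam17 and Dusp6 were added after their values were seen. Also tried were a block for the replicate number, the 4 arrays of a comparison alone, trend and robust options, array weights, quantile and cyclic loess normalization, leaving out the dimmest 30% of genes, averaging the probe sets of a gene, a threshold of 0.01, the study's one-way ANOVA in place of the moderated F test, and each array left out.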

Additional observations from a re-analysis of the deposited data

Results flagged for a closer look

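Egfr and Erbb3 were flagged because the arrays with and without TGFβ did not overlap within either siRNA, with opposite directions in siKlf4 and siControl. Non-overlap alone held for 51.6% of all genes in siControl and 49.2% in siKlf4, so it is common in these data. The share of all genes with non-overlap in both and opposite directions was not computed, so the flag is only a description. For Egfr, the log2 difference of TGFβ against none was −0.27 in siKlf4 and 0.15 in siControl (adjusted p = 0.0571 and 0.312 from limma). The difference between them was −0.41 (standard error 0.111, adjusted p = 0.131 from limma). For Erbb3, the log2 difference was 0.39 in siKlf4 and −0.13 in siControl (adjusted p = 0.0190 and 0.418 from limma). The difference between them was 0.52 (standard error 0.124, adjusted p = 0.0912 from limma). For neither gene did this difference of the TGFβ effects between siKlf4 and siControl pass the threshold. Groups of 2 arrays are too small to look for a single array that stands apart.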

How the results depend on the processing

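Of 711 recomputed log2 differences of members, 688 kept their direction or, where uncalled, their side of the threshold, 15 lost the call and 8 gained one, and none that was called in either fit turned its sign. In 16 of them the sign turned without a call. The log2 difference itself could not change with the replicate block, the 4 arrays alone, trend and robust options or the dimmest genes left out. Nor could it change with probe sets averaged, as each member has 1, or with an array outside the comparison left out. For these alternatives only the adjusted p could move, so a kept direction there says nothing about stability. The changed calls concern 8 of 45 combinations of member and comparison. The number of members called for TGFβ against none in siKlf4 was 3, and it was 1 with only the 4 arrays of the comparison, 1 at a threshold of 0.01, and between 0 and 4 when 1 array was left out. For the interaction it was 0, and 1 with trend and robust options. Leaving out 1 array gave 5 to 6 members for siKlf4 against siControl without TGFβ, 4 to 5 with TGFβ, and 0 for TGFβ against none in siControl. Over all genes, the interaction called 304, between 28 and 214 without 1 array, 760 with trend and robust options and 37 at a threshold of 0.01. TGFβ against none called 2484 in siControl and 2569 in siKlf4, between 1090 and 2545 and between 1274 and 2700 without 1 array, and 1207 and 1402 at a threshold of 0.01. The F test over the 4 groups called 6 members, and the ordinary one-way analysis of variance 5.

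The arrays share replicate numbers, but same-numbered arrays deviated together in only 1 of 6 pairs of groups. The r was 0.38 between the 2 groups without TGFβ and between −0.05 and 0.04 in the others. A block for the replicate number fits a single shift common to all groups, so it does not model a pairing confined to the groups without TGFβ. With the replicate number as a block, 6 and 5 members were called for siKlf4 against siControl without and with TGFβ, 4 for TGFβ against none in siKlf4, where Nrg1 passed (adjusted p = 0.0250 from limma, in a range of 0.0250 to 0.501 over 16 alternatives), and 7 by the F test.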
